A study of Homo sapiens with 4 samples.

Results

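The genes described are the mRNAs of the subunits of RNA polymerases I, II and III, read from RNA-seq of HCT116 cells, which come from a human colon cancer, after treatment with hydrogen peroxide (H2O2), a membrane-crossing oxidant, or without it. All rows of the deposited table whose symbol starts with POLR1, POLR2 or POLR3 and holds no hyphen were taken, which gave 30 of 16376 listed genes: 5 named POLR1, 15 named POLR2 and 10 named POLR3. The groups were H2O2-treated HCT116 cells (2 samples) and untreated HCT116 cells, called Control (2 samples). The labels give neither dose nor exposure time and no other treatment or allele, and nothing in them says that the samples were separate cultures. All p-values therefore reflect the spread between these samples alone, which may be technical. The table holds group means named A and B. The table's name puts Control before H2O2, so A was read as Control and B as H2O2, and the directions below depend on that reading. Whole read counts of the 4 libraries were recovered from the means, and the libraries are called deeper and shallower within each group because the table carries no replicate numbers. They held 7365032 and 6858809 reads over the listed genes for H2O2 and 7309731 and 6892854 for Control, of which the 30 genes took between 0.304% and 0.311%. Of 8 epithelial and colon markers 7 were listed, with a median log2 ratio of 0.0088 and 4 of 7 ratios above 1 in the authors' deposited table, where none was called (2 at an unadjusted p under 0.05; limma also called 0). The pair with the highest mean was KRT19, with 3177 and 3039 reads in the H2O2 libraries and 2491 and 3365 in the Control libraries, and KRT8, with 2544 and 2058 in the H2O2 libraries and 1761 and 1988 in the Control libraries.

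RNA polymerase I transcribes the ribosomal RNA genes, RNA polymerase II transcribes protein-coding genes, and RNA polymerase III makes transfer RNAs, 5S ribosomal RNA and other short RNAs. Each enzyme is built around its own largest and second largest subunits, which together form the active centre. A few small subunits sit in all of these enzymes, a pair is shared by polymerases I and III, and the rest belong to a single enzyme. The libraries were poly(A)-selected, so they measure the mRNAs that encode these subunits and not the ribosomal or transfer RNAs that polymerases I and III make. In bulk RNA of this kind fewer cells of a type and less RNA per cell cannot be told apart.

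With H2O2 the mRNA of POLR1A, the catalytic largest subunit of RNA polymerase I, fell to 0.699 of its mean in Control cells in the authors' deposited table (adjusted p = 0.00293). POLR2K, a small zinc-binding subunit present in all of the polymerases, rose 1.36-fold there (adjusted p = 0.0265), and POLR2J3, a low-count copy of a Pol II subunit gene, fell to 0.322 (adjusted p = 0.0280). The other 27 subunits did not pass an adjusted p of 0.05 in the authors' deposited table. Thus 1 of 30 subunits was called higher, against 2.58% of all listed genes, and 2 of 30 were called lower, against 4.62%, so the share of calls was near that of the whole table. At an unadjusted p under 0.05 the authors' deposited table gave 7 of the 30 subunits (23.3%), against 19.6% of listed genes. limma on the recovered libraries, with Benjamini-Hochberg adjustment, called 1 of the 30, POLR1A, against 4.1% of listed genes in either direction.

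Across libraries, both H2O2 libraries lay above both Control libraries for 11 subunits (36.7%, against 26.3% of listed genes) and below both for 7 (23.3%, against 25.6%), and the groups overlapped for the other 12. The median log2 ratio of H2O2 over Control in the authors' deposited table was 0.084 over the 30 subunits and 0.00029 over all listed genes, whose quartiles were -0.22 and 0.18. The Control libraries lay farther apart than the H2O2 libraries for 25 of the 30 subunits, with median absolute log2 differences of 0.077 between the H2O2 libraries and 0.20 between the Control libraries. Among the 12118 listed genes of mean at least 50 the Control pair was the farther apart for 63.6%. Without the shallower Control library limma called 11 subunits (7 higher, 4 lower) and 3641 genes in all, without the deeper Control 3 subunits (POLR1A, POLR2K and POLR2M) and 1396 genes, without the deeper H2O2 library POLR2J3 alone and 284 genes, and without the shallower H2O2 library 0 subunits and 512 genes. The 7 higher were the 5 subunits of all polymerases with POLR1D and POLR2G, and the 4 lower were POLR1A, POLR2A, POLR3A and POLR2J3. These fits take the lone library of a group to vary like the other group, so without a Control library the spread comes from the H2O2 libraries alone.

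**Figure D1:**
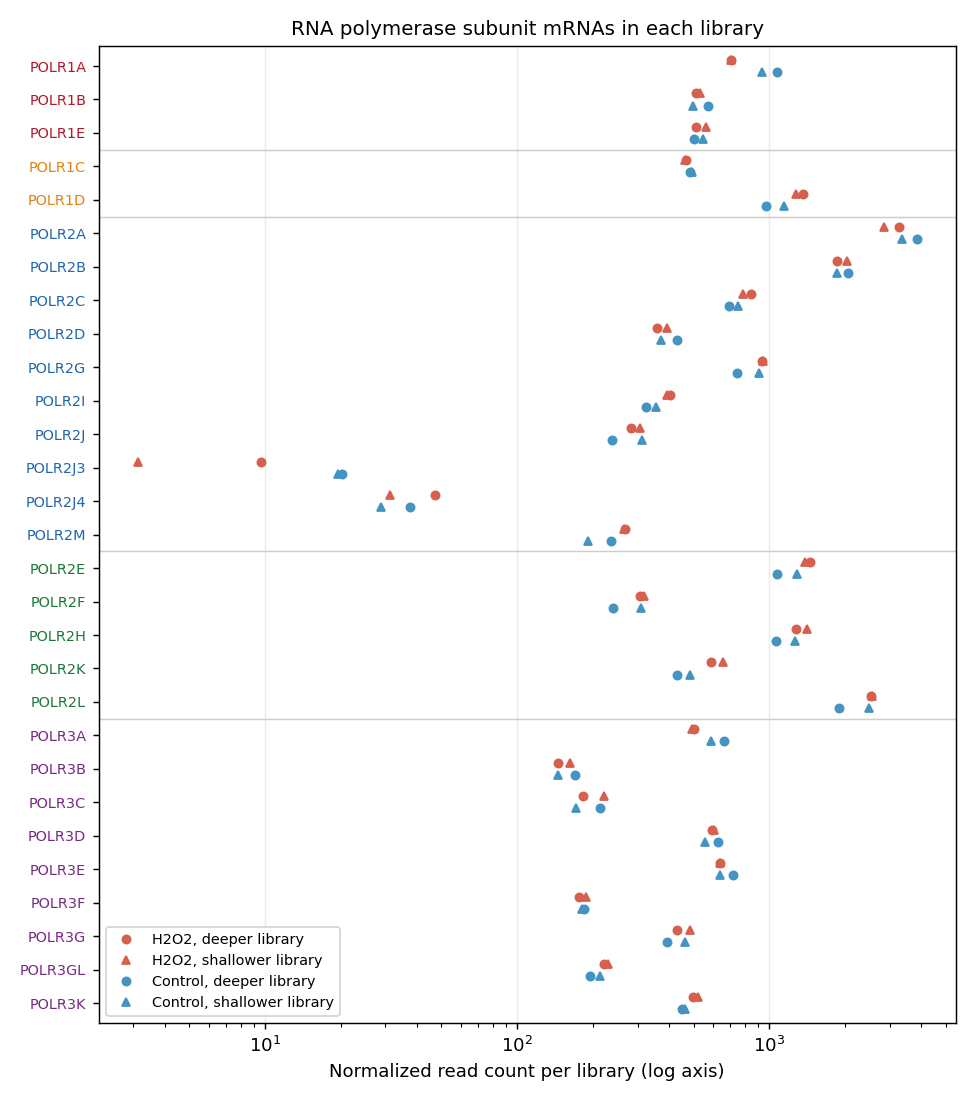
Normalized read count (log axis) of 29 of the 30 subunit mRNAs in each library, with H2O2 libraries in red and Control libraries in blue, circles for the deeper and triangles for the shallower library of a group; symbols are coloured by the enzyme that holds the subunit. The H2O2 points of POLR1A, 704 and 701, lie left of its Control points, 1074 and 934, while those of POLR2K lie to the right.

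The largest subunits carry most of the catalytic centre of each enzyme. Of their mRNAs only POLR1A passed the authors' test and limma with all 4 libraries. POLR1A had 704 and 701 normalized counts in the H2O2 libraries, against 1074 and 934 in the Control libraries, from 729 and 674 against 1121 and 910 reads. The groups did not overlap, and the H2O2 libraries differed from each other by less than the Control libraries did. In limma, with 2 libraries per group, POLR1A fell by 0.51 ± 0.11 (log2 scale, SE, adjusted p = 0.0193). Leaving out the deeper H2O2 library gave a limma adjusted p of 0.189, and leaving out the shallower gave 0.151, both at a log2 fold change of -0.51.

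POLR2A, the largest subunit of RNA polymerase II, whose C-terminal repeats are phosphorylated during transcription, had 3256 and 2854 normalized counts in the H2O2 libraries, against 3834 and 3355 in the Control libraries. Its ratio in the authors' deposited table was 0.850 (log2 -0.23, adjusted p = 0.331), which did not pass. POLR3A, the largest subunit of RNA polymerase III, had 501 and 495 normalized counts in the H2O2 libraries, against 661 and 588 in the Control libraries. Its ratio in the authors' deposited table was 0.797 (log2 -0.33, adjusted p = 0.137). For both genes the H2O2 libraries lay below both Control libraries. The unadjusted p of the authors' test was 0.0800 for POLR2A and 0.0169 for POLR3A, and neither gene passed after adjustment. Over these 3 genes, grouped after their values were seen, the sums of normalized counts were 4461 and 4050.4 with H2O2, against 5569.9 and 4877 in Control. The median log2 ratio was -0.33, and it was -0.24 without the deeper Control and -0.41 without the shallower, the Control libraries themselves differing by a median log2 of -0.19 (shallower over deeper).

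The second largest subunits, which complete the active centre, differed from their Control levels by less than the spread between libraries. POLR1B had 514 and 533 normalized counts in the H2O2 libraries, against 572 and 497 in the Control libraries. POLR2B had 1849.5 and 2024 with H2O2 against 2050.3 and 1849 in Control, and POLR3B 145 and 162 against 169 and 145. All of these groups overlapped. Their log2 ratios in the authors' deposited table were -0.031 for POLR1B, -0.0094 for POLR2B and -0.030 for POLR3B, with adjusted p of 0.944, 0.992 and 0.969. The standard errors in limma were 0.12, 0.11 and 0.16 on the log2 scale. Whether the largest subunits changed by more than the second largest was not tested.

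The promoters of the largest subunit genes are shown with that of POLR2E, a subunit of all the polymerases. The largest subunits lay below their Control levels and POLR2E above, but of these genes only POLR1A passed the authors' test. No promoter was matched for POLR2K. Each promoter shown runs from 250 bases before to 50 bases after the annotated start. Positions are from RefSeq on GRCh38.p14, a later build than the hg19 named by the submitters. Capitals mark matches, on either strand, to GGGCGG (GC box), CCGGAAG (ETS factors), CACGTG (E-box) or TGCGCA (NRF1). POLR1A lies at chr2:86105837-86106136 on the minus strand, POLR2A at chr17:7484116-7484415 on the plus strand, POLR3A at chr10:78029466-78029765 on the minus strand and POLR2E at chr19:1095326-1095625 on the minus strand.
POLR1A: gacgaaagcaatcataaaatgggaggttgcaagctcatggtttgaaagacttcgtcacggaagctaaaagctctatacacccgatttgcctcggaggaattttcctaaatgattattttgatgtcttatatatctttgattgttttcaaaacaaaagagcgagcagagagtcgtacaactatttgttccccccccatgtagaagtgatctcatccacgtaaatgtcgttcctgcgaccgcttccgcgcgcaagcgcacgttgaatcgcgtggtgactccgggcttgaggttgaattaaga
POLR2A: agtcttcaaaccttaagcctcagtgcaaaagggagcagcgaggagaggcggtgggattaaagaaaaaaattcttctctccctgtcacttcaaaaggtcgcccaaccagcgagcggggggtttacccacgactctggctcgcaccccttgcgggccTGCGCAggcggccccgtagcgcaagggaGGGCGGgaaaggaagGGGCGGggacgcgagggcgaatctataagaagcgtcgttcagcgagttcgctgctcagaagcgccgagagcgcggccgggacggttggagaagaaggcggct
POLR3A: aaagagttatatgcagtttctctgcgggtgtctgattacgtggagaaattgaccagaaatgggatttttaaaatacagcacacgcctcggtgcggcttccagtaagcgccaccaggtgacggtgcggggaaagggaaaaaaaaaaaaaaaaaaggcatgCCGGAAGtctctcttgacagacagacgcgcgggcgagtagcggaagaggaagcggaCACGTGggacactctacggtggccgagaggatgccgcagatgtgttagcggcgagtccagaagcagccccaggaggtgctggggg
POLR2E: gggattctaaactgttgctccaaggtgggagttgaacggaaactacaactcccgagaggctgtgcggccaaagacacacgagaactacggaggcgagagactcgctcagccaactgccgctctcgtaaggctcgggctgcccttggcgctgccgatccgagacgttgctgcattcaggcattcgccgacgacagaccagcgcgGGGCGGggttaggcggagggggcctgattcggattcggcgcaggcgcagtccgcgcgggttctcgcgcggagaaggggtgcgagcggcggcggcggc
The POLR1A promoter held no match to any motif searched and had the lowest GC content of the 20 subunit promoters in the RefSeq table, 44.7%. The POLR2A promoter held a pair of GC boxes and a TGCGCA, the POLR3A promoter a CCGGAAG and a CACGTG, and the POLR2E promoter a GC box. A match here is a description of the letters and not evidence of binding.

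Among the 20 promoters, GGGCGG occurred in 15 (75%), against 44.6% of all 27305 promoters in the table and 69.1% of the 10323 that belong to listed genes. CCGGAAG occurred in 8 (40%), against 10.7% of all promoters and 18.1% of those of listed genes. It was present for POLR1B, POLR1C, POLR2C, POLR2D, POLR2F, POLR2M, POLR3A and POLR3C, genes of all 3 enzymes whose log2 ratios in the authors' deposited table ran from -0.33 to 0.33. CCAAT occurred in 4 (20%, against 35.7% and 36.2%), CACGTG in 3 (15.0%, against 7.43% and 9.92%) and TGCGCA in 3 (15.0%, against 8.42% and 12.9%). TATAAA occurred in POLR2M alone (5.0%, against 11.95% and 5.80%). The AP-1 letters TGACTCA occurred in 0 of the 20, against 4.92% and 3.26%. Both strands were searched, the motifs do not overlap one another in their letters, and the median GC content was 61.8% for the subunit promoters, 58.3% for all promoters and 65.3% for those of listed genes.

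The 5 subunits held by all of the polymerases form part of the common core and are encoded by POLR2E, POLR2F, POLR2H, POLR2K and POLR2L. Each had a ratio above 1 in the authors' deposited table, where 50% of listed genes did, and for 4 of the 5 both H2O2 libraries lay above both Control libraries, against 26.3% of listed genes. POLR2K had 584 and 657 normalized counts in the H2O2 libraries, against 429 and 483 in the Control libraries, and the groups did not overlap. limma gave POLR2K a log2 fold change of 0.44 ± 0.12 (SE, 2 libraries per group) with an adjusted p of 0.0546, so the authors' call did not hold there. Without the deeper H2O2 library the limma adjusted p was 0.183 and without the shallower 0.448, at log2 fold changes of 0.53 and 0.36.

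POLR2L had 2524 and 2541 normalized counts in the H2O2 libraries, against 1879.6 and 2480.0 in the Control libraries. POLR2E had 1453 and 1389.7 with H2O2 against 1071 and 1289 in Control, and POLR2H 1276 and 1404 against 1058 and 1269. For these genes the deeper Control library was low and the shallower one lay closer to the H2O2 libraries. POLR2F, with 307 and 317 against 239.6 and 309, was the shared subunit whose groups overlapped. Their ratios in the authors' deposited table were 1.204 for POLR2E, 1.16 for POLR2L, 1.15 for POLR2H and 1.14 for POLR2F, with adjusted p of 0.2, 0.344, 0.385 and 0.531.

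Summed over the 5 shared subunits, normalized counts were 6144 and 6309.6 in the H2O2 libraries, against 4678 and 5830.5 in the Control libraries. The median log2 ratio of 0.22 in the authors' deposited table was 0.079 without the deeper Control library and 0.41 without the shallower. The median log2 difference between the Control libraries was 0.27 for the same genes (shallower over deeper), larger than the difference between the groups. The part of the deeper Control library in these ratios was not tested beyond leaving it out.

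**Figure D2:**
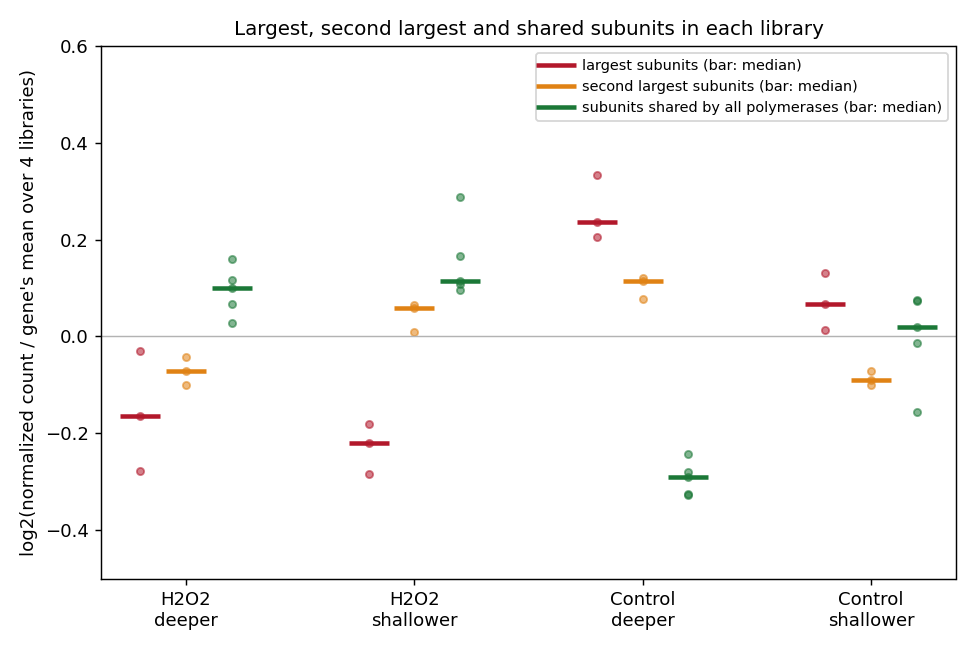
Each library's normalized count of the 3 largest, 3 second largest and 5 shared subunits, as the log2 of the count over that gene's mean across the 4 libraries; points are genes and bars are medians. The largest subunits have medians of -0.16 and -0.22 in the H2O2 libraries and 0.24 and 0.067 in the Control libraries, and the shared subunits 0.099 and 0.11 with H2O2 and -0.29 and 0.019 in Control.

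The remaining subunits of RNA polymerase II lay mostly above their Control levels by small margins. POLR2C and POLR2J encode a pair that starts the assembly of the enzyme, POLR2D and POLR2G the detachable stalk, and POLR2I a subunit that acts in start site choice and proofreading. POLR2G had 935 and 944 normalized counts in the H2O2 libraries, against 746 and 907 in the Control libraries. POLR2C had 848 and 786 with H2O2 against 693 and 752 in Control, and POLR2I 403 and 391 against 323 and 354. For these 3 genes the groups did not overlap. POLR2J, with 282 and 307 against 238 and 312, overlapped, as did POLR2D, with 359 and 393 against 429 and 373. Their log2 ratios in the authors' deposited table were 0.23 for POLR2I, 0.19 for POLR2G, 0.18 for POLR2C, 0.10 for POLR2J and -0.092 for POLR2D, and none passed (adjusted p between 0.396 and 0.790).

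POLR2I is an uncertain value, because 79.6% of its exonic bases overlap exons of genes on the opposite strand, TBCB among them, and whether counting used strand is not given in the sources used here. For POLR2L that overlap was 22.5% (CD151), for POLR1C 18.2% and for POLR2B 12.4%. Overlap with exons of genes on the same strand was 76.2% for POLR2J3, 34.5% for POLR2J4, 21.2% for POLR3GL (AC243547.3) and 21.1% for POLR2M. The value of POLR3GL is therefore uncertain as well. POLR2M encodes a protein that binds RNA polymerase II and hinders initiation in the absence of Mediator, rather than a core subunit. It had 268 and 264 normalized counts in the H2O2 libraries, against 235 and 189.9 in the Control libraries, without overlap. Its ratio was 1.25 in the authors' deposited table (adjusted p = 0.244), and it is uncertain, since 30.4% of its 75-base words are shared with other genes, GCOM1 foremost, whose readthrough transcripts include it.

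POLR2J has near-identical copies on chromosome 7. POLR2J3 had 10 and 3 reads in the H2O2 libraries, against 21 and 19 in the Control libraries. Both H2O2 libraries lay below both Control libraries, and the lower of them held 3 reads. limma gave a log2 fold change of -1.65 ± 0.48 (SE, 2 libraries per group, adjusted p = 0.0648), and -0.97 without the shallower H2O2 library (adjusted p = 0.393), so the authors' call did not hold there. POLR2J4, annotated as a processed transcript, had 49 and 30 reads with H2O2 against 39 and 28 in Control, which overlapped (adjusted p = 0.751 in the authors' deposited table).

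Over the 474 coding bases, POLR2J3 differs from POLR2J at 5 positions and POLR2J2, which is not analysed here, at 7. Positions are counted from 1 at the first coding base, with the POLR2J base first. POLR2J3 carries T312C, G412C, G413A, A426G and G438A. POLR2J2 carries these and also T84G and T90C. The first 311 coding bases of POLR2J3 are identical to those of POLR2J, and the stretch from base 61 to base 150 lies within them. Capitals mark, in every copy, the positions where any copy differs, here T84G and T90C of POLR2J2.
POLR2J: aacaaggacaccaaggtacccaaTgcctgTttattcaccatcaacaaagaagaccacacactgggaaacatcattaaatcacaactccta
POLR2J3: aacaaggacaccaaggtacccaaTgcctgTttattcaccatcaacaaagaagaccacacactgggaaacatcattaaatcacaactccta
POLR2J2: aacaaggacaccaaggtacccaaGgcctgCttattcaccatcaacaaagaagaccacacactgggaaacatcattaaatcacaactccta
A read that falls within such a stretch fits more than 1 of these genes. Of the 75-base words of the longest transcript, 90.8% for POLR2J3, 31.2% for POLR2J4 and 28.9% for POLR2J also occur in transcripts of other gene records. For POLR2J3 the record that shares the most words also bears the name POLR2J3. How the authors' counting split such reads is not given in the sources used here, so the values of all 3 are uncertain.

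RNA polymerase I and the subunits it shares with RNA polymerase III gave values on both sides. POLR1E, which acts in initiation at the ribosomal RNA genes, had 513 and 559.6 normalized counts in the H2O2 libraries, against 504 and 543 in the Control libraries, and the groups overlapped (ratio 1.02 in the authors' deposited table). POLR1D, a subunit of the pair that starts assembly of polymerases I and III, had 1356 and 1280.4 with H2O2, against 972 and 1144 in Control, without overlap. Its ratio was 1.25 in the authors' deposited table, short of the threshold (log2 0.32, adjusted p = 0.112), and limma gave 0.32 ± 0.11 (SE, 2 libraries per group, adjusted p = 0.129). Its partner POLR1C had 466 and 463 normalized counts with H2O2, against 484 and 494 in Control. That is a small margin without overlap, at a ratio of 0.950 in the authors' deposited table (adjusted p = 0.849).

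None of the 10 subunits held by RNA polymerase III alone passed in the authors' deposited table, with 1, POLR3A, at an unadjusted p under 0.05, and limma called 0 with 2 libraries per group, also with POLR3A alone under 0.05 unadjusted. POLR3K, the subunit that acts in termination and in cleavage of the transcript, had 498 and 523 normalized counts in the H2O2 libraries, against 451 and 462 in the Control libraries, without overlap (ratio 1.12 in the authors' deposited table). POLR3C, POLR3F and POLR3G form a group that acts in initiation, and POLR3GL takes the place of POLR3G in a variant of the enzyme. POLR3GL had 220.1 and 229.9 with H2O2, against 195 and 214 in Control, without overlap. POLR3G had 431 and 485 against 393 and 464, POLR3C 181 and 222 against 213 and 170.4, and POLR3F 176 and 187 against 183 and 181, all with overlap. Within the pair POLR3G and POLR3GL, the ratios in the authors' deposited table were 1.07 and 1.103.

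POLR3D and POLR3E form a pair that acts in initiation and termination. POLR3D had 593 and 600.2 normalized counts with H2O2, against 626 and 553 in Control, and overlapped. POLR3E had 634 and 637 normalized counts with H2O2, against 716 and 639.5 in Control, so its H2O2 libraries lay just below both Control libraries. The log2 ratios of the 10 subunits in the authors' deposited table ran from -0.33 for POLR3A to 0.16 for POLR3K, with a median of 0.0067.

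**Figure D3:**
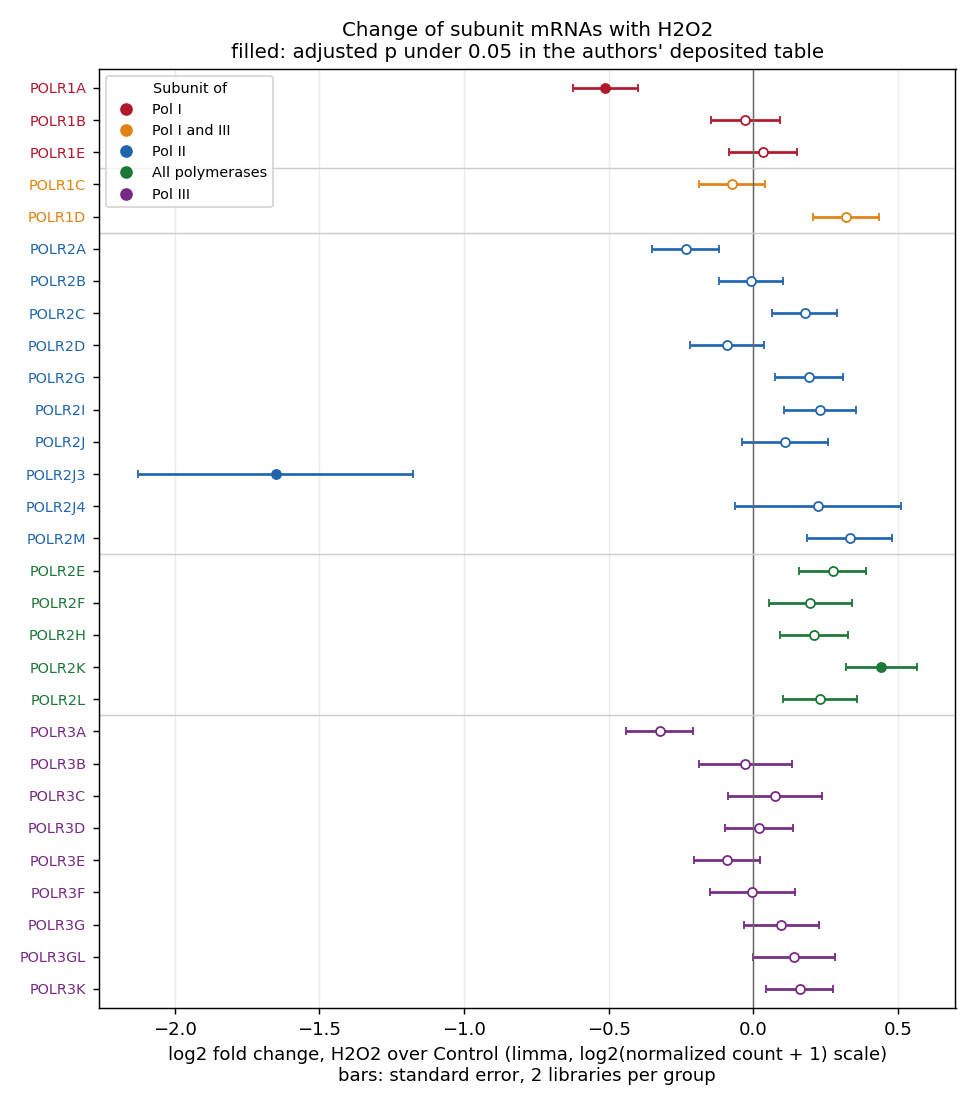
Log2 fold change of 29 of the 30 subunit mRNAs, H2O2 over Control, from limma on the log2(normalized count + 1) scale, with bars of 1 standard error (2 libraries per group), coloured by the enzyme that holds the subunit; filled points passed an adjusted p of 0.05 in the authors' deposited table. POLR1A stands at -0.51, POLR2K at 0.44 and POLR2J3 at -1.65, and the other points lie between -0.32 and 0.33.

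Set side by side by symbol stem, the 3 polymerases had median log2 ratios of -0.031 for POLR1 (5 genes), 0.19 for POLR2 (15 genes) and 0.0067 for POLR3 (10 genes) in the authors' deposited table. Summed normalized counts for POLR1 were 3552 and 3537 in the H2O2 libraries, against 3607 and 3611 in the Control libraries. For POLR2 they were 14402 and 14308 with H2O2 against 13283 and 13971 in Control, and for POLR3 4127 and 4279 against 4425 and 4188. The POLR2 sums were above both Controls in the H2O2 libraries, at a ratio of the summed means of 1.05, the POLR1 sums lay below both (0.982) and the POLR3 sums overlapped (0.976). With libraries scaled to equal total counts the POLR3 median became -0.010, and the signs of the POLR1 and POLR2 medians held under both other scalings. The POLR2 stem includes the 5 subunits that all enzymes hold. Without them the other 10 genes had a median log2 ratio of 0.14, and their sums were 8258 and 7999 with H2O2, against 8606 and 8140.1 in Control. Counted by complex with shared subunits in each, the medians were 0.20 for RNA polymerase I (10 genes), 0.19 for II (15 genes) and 0.095 for III (17 genes). These medians share genes and were not tested against each other. Only genes named POLR entered them, so the 4 listed subunits with other symbols are left out. The set for II includes POLR2M, POLR2J3 and POLR2J4.

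Levels of different genes were compared per kilobase of exon. POLR2L had the highest level, 2218 normalized counts per kb in H2O2 and 1909 in Control. The next levels in Control were those of POLR2A (366 in H2O2 and 430.2 in Control) and POLR2G (489 and 429.8), which did not differ in Control beyond the spread of their libraries. POLR2H stood at 426 in H2O2 and 370 in Control. Per kb of the longest transcript POLR2H came next after POLR2L in Control, at 646, above POLR2A (532) and POLR2G (531). The lowest per kb of exon were POLR2J4 (6.05 and 5.09) and POLR2J3 (2.0 and 6.21). POLR1A, at 52.0 in H2O2 and 74.3 in Control, ranked 21 of 30 in Control. By stem the median level was 83.7 in H2O2 and 88.1 in Control for POLR1, 292 and 243 for POLR2, and 89.2 and 88.3 for POLR3. With the longest transcript in place of all exons the levels were higher, at 190.1 and 200.04, 399.6 and 351, and 121 and 117 in the same order, with POLR2 still above the others. The POLR2 stem includes the 5 subunits of all polymerases. Without them the other 10 POLR2 genes had medians of 212 in H2O2 and 193 in Control per kb of exon. Per kb of the longest transcript these were 357 and 318.

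**Figure D4:**
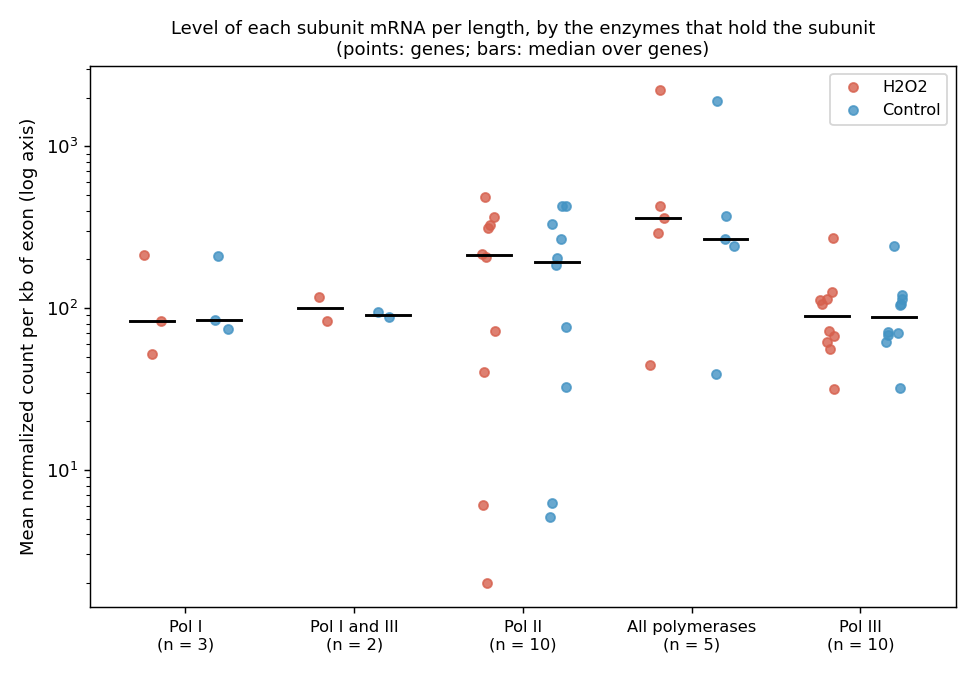
Mean normalized count per kb of exon (log axis) of each subunit mRNA in H2O2 (red, left) and Control (blue, right), by the enzymes that hold the subunit; points are genes and bars are medians over genes. The subunits of all polymerases have medians of 363 in H2O2 and 267 in Control, and those of RNA polymerase III 89.2 and 88.3.

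Longer genes had lower log2 ratios among the subunits, as they did over the whole table. Of 7 subunits with under 2 kb of exon 7 had a ratio above 1 (median log2 0.19), of 9 with 2 to 5 kb 6 did (0.073), and of 14 with 5 kb or more 5 did (-0.052). Among listed genes of mean at least 10 with a length, the shares were 71.7% of 1314, 63.7% of 5390 and 35.0% of 6717, with median log2 ratios of 0.16, 0.079 and -0.096. Across the 30 subunits Spearman's rho between exonic length and log2 ratio was -0.38, against -0.37 over 13421 listed genes. With the longest transcript it was -0.53 over the 30 subunits, and no such value was computed over the listed genes. All are descriptions over genes that share the same 4 libraries. Without the deeper Control library the values over the subunits were -0.22 with exonic length and -0.25 with the longest transcript. Libraries of 1 group differed from each other along length too. Over the same 30 subunits the rho between exonic length and the log2 of the shallower over the deeper library was -0.40 for H2O2 and -0.48 for Control.

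A smooth curve of log2 ratio over exonic length, fitted on the 13421 listed genes of mean at least 10 with a length, stood at -0.22 at the length of POLR1A (13.5 kb) and at 0.15 at that of POLR2K (1.71 kb). POLR1A lay 0.30 below the curve and POLR2K 0.30 above it. POLR2A and POLR3A lay at -0.12 and -0.20 from the curve. POLR1D, whose 11.2 kb of exon was the second longest, lay at 0.49 from it, and POLR2F at 0.26. With a curve over the length of the longest transcript, added after seeing the data, POLR2F lay at 0.086, POLR1D at 0.37 and POLR1A at -0.21, and the median of the 5 shared subunits was 0.086, against 0.26 with exonic length. After taking off the curve over exonic length all 5 shared subunits were above 0 and all 3 largest subunits below 0, and the stem medians were -0.046 for POLR1, 0.075 for POLR2 and -0.018 for POLR3.

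**Figure D5:**
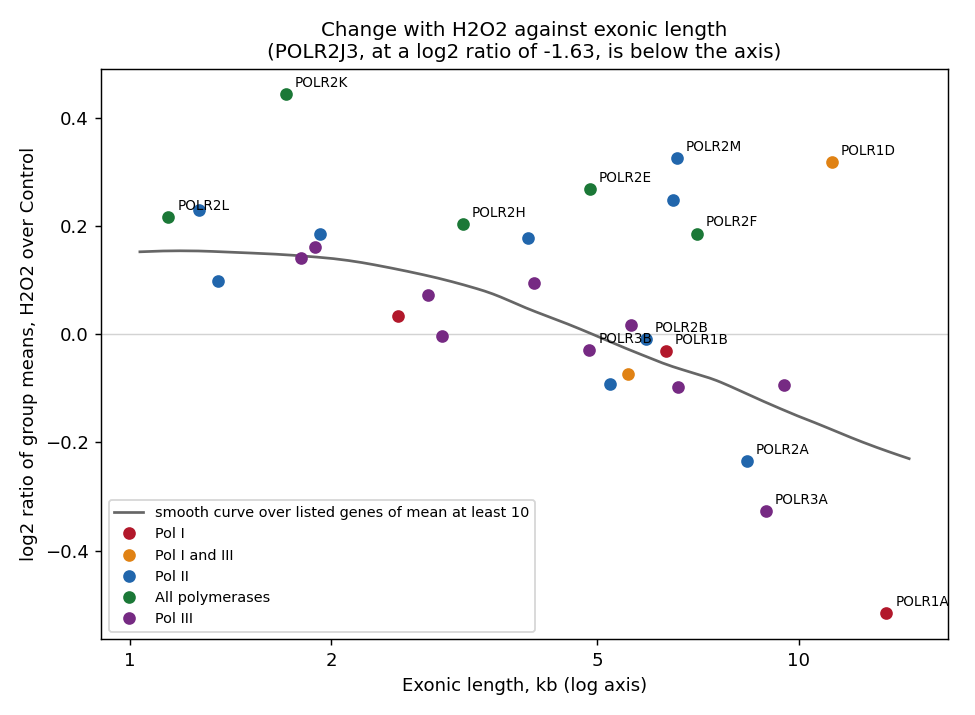
Log2 ratio of H2O2 over Control in the authors' deposited table against exonic length (log axis) for 29 of the 30 subunits, coloured by the enzyme that holds the subunit, with the smooth curve over listed genes of mean at least 10 with a length; POLR2J3, at -1.63, is below the axis. The curve passes from 0.15 at the shortest genes to -0.22 at the length of POLR1A, and POLR1A, POLR3A and POLR2A lie below it.

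The genes that work with the polymerases were read from the same table. Of 64 other listed genes of the pathway 1 was called higher (1.56%, against 2.58% of all listed genes) and 2 lower (3.13%, against 4.62%) in the authors' deposited table. At an unadjusted p under 0.05 there were 12 (18.8%, against 19.6%), so these shares were near or under the background, and limma called the same 3 genes. Without the deeper H2O2 library limma called 0 of the 64, without the shallower 1, without the deeper Control 4 and without the shallower Control 22. The 4 subunits with other symbols held no call by the authors' test (0 at an unadjusted p under 0.05) or by limma, with a median log2 ratio of 0.029 in the authors' deposited table. Among them CD3EAP, the partner of POLR1E, had a log2 ratio of 0.026 and TWISTNB, of the RNA polymerase I stalk, 0.033. Of 7 factors that work with RNA polymerase I, TAF1C fell to 0.717 of its mean in Control cells (adjusted p = 0.00609 in the authors' deposited table). TAF1C is a subunit of the promoter selectivity complex. Its reads were 1026 and 970 in the H2O2 libraries, against 1424 and 1385 in the Control libraries, without overlap. limma gave TAF1C -0.48 ± 0.11 on a log2 scale (SE, 2 libraries per group, adjusted p = 0.0187). TAF1D of the same complex had a log2 ratio of -0.090 in the authors' deposited table.

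Of 16 factors that work with RNA polymerase III, SNAPC4 fell to 0.621 of its mean in Control cells in the authors' deposited table. SNAPC4 is the largest subunit of the complex that binds snRNA promoters of polymerases II and III. Its reads were 436 and 437 in the H2O2 libraries, against 724 and 697 in the Control libraries. GTF3C1 and GTF3C5, subunits of the factor that binds transfer RNA genes, had log2 ratios of -0.12 and 0.075 in the authors' deposited table. Of 28 general factors of RNA polymerase II, TAF7, a subunit of TFIID, rose 1.34-fold there (adjusted p = 0.0237), with 1224 and 1180 reads in the H2O2 libraries, against 910 and 905 in the Control libraries. limma gave 0.42 ± 0.11 for TAF7 and -0.69 ± 0.11 for SNAPC4 on a log2 scale (SE, 2 libraries per group, adjusted p = 0.0401 and 0.00377). TBP, which serves all of the polymerases, had 338 and 304 reads with H2O2 against 284 and 292 in Control (log2 ratio 0.17, adjusted p = 0.586 in the authors' deposited table). GTF2F1 and TAF10 stood at log2 ratios of 0.14 and 0.13 there. None of the 9 assembly factors was called by the authors' test (1 at an unadjusted p under 0.05) or by limma. RUVBL1 and RUVBL2, helicases that help assemble the enzymes, each had a log2 ratio of 0.17 in the authors' deposited table.

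Markers of other cell types were only partly listed. COL1A1, a fibroblast marker, was not low, with mean normalized counts of 553 with H2O2 and 753 in Control. The listed leukocyte and endothelial markers had low counts. Of 6 fibroblast markers 3 were listed, and COL1A1 fell, with 579 and 526 reads in the H2O2 libraries against 780 and 739 in the Control libraries (ratio 0.734, adjusted p = 0.0211 in the authors' deposited table). COL3A1 had 247 and 182 reads with H2O2 against 255 and 152 in Control, with overlap (ratio 1.07 there). Of 5 leukocyte markers 2 were listed, with sums of 32 and 31 reads in the H2O2 libraries, against 4 and 16 in the Control libraries. CD79A had 23 and 19 reads with H2O2 against 0 and 2 in Control. It was called higher in the authors' deposited table (ratio 20.4, adjusted p = 5.88e-07) and by limma (adjusted p = 0.00365). CD68 had 9 and 12 reads with H2O2 against 4 and 14 in Control. Of 4 endothelial markers KDR was listed, with 14 and 8 reads against 7 and 6. Their part in the subunit values was not tested.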

How the data were processed

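RNA-seq was made from poly(A)-selected RNA of 2 H2O2-treated and 2 untreated HCT116 samples and Illumina's TruSeq RNA kit, per the labels' protocols. Per the submitters' processing notes, the tools were STAR, HTSeq, DESeq, Trim Galore, FastQC and CASAVA 1.8 and the build was hg19, with no roles stated. Not given in the sources used here are strand use, the gene annotation and the dispersion model. The authors deposited 1 table, with 16376 genes. The signal in its mean columns is each group's average of size-factor-scaled counts, made by the authors, per the file headers. Its fold column divides the H2O2 by the Control mean and its log2 column is the logarithm of that ratio, both deposited by the authors. P-values, raw and after Benjamini-Hochberg adjustment, are those of the authors' DESeq test, per the file headers. One gene's deposited fold is infinite.

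Each group mean was solved for the pair of whole counts behind it, within a tolerance of 1e-09. Exactly 1 solution was found for all 16376 genes in both groups, with largest residuals of 4.55e-11 for H2O2 and 4.91e-11 for Control. In simulation 100% of group means were recovered. Calls in the text are those of the authors' test with an adjusted p below 0.05. The alternative was limma (3.58.1, R 4.3.3), fitted to log2(normalized count + 1) with a trend of variance over mean, a scale that understates the change of low genes, and was checked on simulated data. All 30 subunits had a mean of at least 10, and 28 of at least 50, the exceptions being POLR2J3 and POLR2J4. Lengths, shared 75-base words and exon overlaps were taken from GENCODE release 29. Symbols or synonyms matched for 85.2% of listed genes and for all 30 subunits. The curve over length was a lowess fit with a span of 0.3 on genes of mean at least 10. Promoters were matched to RefSeq by symbol for 20 subunits.

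The table carries no columns per sample, so no replicate number pairs the libraries. Every subunit is named but 1, which enters the counts and medians and is not reported here. From each other list the genes past the authors' threshold and the pair with the highest mean are named, with TBP and POLR2A always. The members and lists were chosen with earlier results of these data known. The groupings by largest and second largest subunit, the bands of length and the motifs were chosen after values were seen. Having 2 libraries per group limits the precision of every fold change, and the depth of 6858809 to 7365032 reads per library sets the counting error of low genes such as POLR2J3.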

Additional observations from a re-analysis of the deposited data

How the results depend on the processing

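None of the 358 values of single subunits under another setting reversed a called direction: 311 kept direction and side of the threshold, 20 lost a call (POLR1A, POLR2J3 and POLR2K), 9 gained one when a Control library was left out and 18, of 11 subunits, changed sign without a call. POLR1A was called in every limma setting with all 4 libraries; POLR2K in 1 of them, upper quartile scaling; POLR2J3 in none of those that tested it.

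Over all genes the authors' 1178 calls at an adjusted p under 0.05 became 642 at 0.01. limma gave 671 with a pseudocount of 1, 663 with 0.5, 685 with 5, 669 with total count scaling, 661 with upper quartile scaling, 626 with voom, 655 at a mean of at least 10, 460 at a mean of at least 50, and 284 to 3641 with 1 library left out. Of the 3 called subunits 1 remained at 0.01, and limma called 1 with each pseudocount, with total count scaling, with voom and under either filter on the mean, and 0 to 11 with 1 library left out. The 3 calls among the other pathway genes became 5 at 0.1 and 0 to 22 with 1 library left out.

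With 1 library left out the median log2 ratio ran from -0.059 to -0.0053 for POLR1, from 0.067 to 0.30 for POLR2 and from -0.074 to 0.046 for POLR3. With shared subunits counted in each complex it was 0.20 for POLR1 and 0.095 for POLR3. Taking off the curve over exonic length gave 0.075 for POLR2, and the curve over the longest transcript, added after seeing the data, 0.074. Levels per kb of the longest transcript were 190.1 in H2O2 and 200.04 in Control for POLR1, 399.6 and 351 for POLR2, and 121 and 117 for POLR3. Causes of these differences were not tested. No paired analysis was possible because the table has no columns per sample and no replicate numbers. Counts of low genes limit what can be seen: POLR2J3 held 3 to 21 reads per library.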
